A study of Homo sapiens with 12 samples.

Results

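YAP (encoded by YAP1) and TAZ (encoded by WWTR1) are transcriptional coactivators of the Hippo pathway. The kinases LATS1 and LATS2 phosphorylate them, which keeps them out of the nucleus and promotes their turnover, and phosphatases such as protein phosphatase-1 (PP1) can remove these phosphates. In the nucleus they bind DNA through TEAD factors and drive genes for secreted matrix proteins, receptors and some of their own inhibitors. The mRNAs of 10 genes of this system are described here. They are the coactivators YAP1 and WWTR1, the DNA-binding partner TEAD1, the regulators LATS2, AJUBA and AMOTL2, and the target genes CYR61, CTGF, ANKRD1 and AXL. They were looked up by symbol, and all 10 were found among the 58233 genes counted.

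The cells were HCT116, a human colorectal carcinoma line, and every group carried the Tet-OsTIR1 transgene, in which a tetracycline-inducible promoter drives rice TIR1 from both AAVS1 alleles. In the parental line SDS22, a regulatory subunit of PP1, was untagged, whereas in the SDS22-degron line the endogenous gene (PPP1R7) encoded a fusion with mAID and mClover. According to the study's methods, edited cells were expanded from individual colonies, so that a difference between the lines cannot be told apart from a difference between a colony and its parental population. Each line was either left untreated or given Dox (2 µg/ml) plus IAA (500 µM) for 48 h, which induces TIR1 and targets the tagged SDS22 for degradation. Each of the 4 groups had 3 libraries, numbered as biological replicates in the labels. Because Dox and IAA were always given together, their effects cannot be told apart.

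The 12 libraries held between 12133915 and 14657508 counts on genes. PPP1R7 mRNA lay between 40.0 and 51.1 CPM (gene counts scaled to library depth) in all of them and was not called in any comparison. It does not check the labels, since the fusion is removed as protein. All 5 epithelial markers examined (EPCAM, KRT8, KRT18, KRT19 and CDH1) had counts in every group. Of 7 fibroblast, blood and endothelial markers only COL1A1 was abundant enough to be tested. The summed level of these markers was between 9.95 and 15.8 CPM in the untreated and between 17.2 and 31.8 CPM in the treated libraries. Nearly all of this sum was COL1A1. Its group means were 11.5 of 11.6 and 20.1 of 20.2 CPM in untreated and treated parental cells. In SDS22-degron cells they were 14.4 of 14.6 and 27.8 of 27.9 CPM. The RNA was extracted from whole cultures, so that fewer cells with an mRNA and less mRNA per cell cannot be told apart. The counts also say nothing of the phosphorylation or location of the YAP and TAZ proteins.

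TEAD factors recognize the letters CATTCC, or GGAATG on the other strand. RefSeq promoter sequences (GRCh38.p14) were matched for 8 of the 10 members, with 12 start sites in all, but not for CYR61 and TEAD1. In the 250 bases before the start site, CATTCC was found on either strand in 6 of the 12 windows, each of a different member, against 11.9% of 35116 such windows over all genes. CTGF held 3 copies, a number reached by 0.0826% of the windows, and ANKRD1 held 2, reached by 0.94%. YAP1 held 1 copy. AJUBA, AMOTL2 and AXL each held 1 copy before the second of their start sites, and WWTR1 and LATS2 held none. The pattern TGANTCA, in which N is any base, reads the same on both strands and takes in the AP-1 sites TGACTCA and TGAGTCA. It was found only for ANKRD1, against 6.57% of windows. The letters there were TGATTCA, which is neither AP-1 site. The CArG box bound by SRF was found for no member, against 1.16% of windows. None of these matches overlapped. The upstream sequences of 4 members are printed 5′ to 3′ on the strand of the gene, with CATTCC or GGAATG in capitals. CTGF is shown for the largest difference between the lines, ANKRD1 for its copies, and YAP1 and AXL as a riser and a faller after Dox/IAA. A match is a string of letters and not evidence of binding.
CTGF (chr6:131951373-131951622, minus strand): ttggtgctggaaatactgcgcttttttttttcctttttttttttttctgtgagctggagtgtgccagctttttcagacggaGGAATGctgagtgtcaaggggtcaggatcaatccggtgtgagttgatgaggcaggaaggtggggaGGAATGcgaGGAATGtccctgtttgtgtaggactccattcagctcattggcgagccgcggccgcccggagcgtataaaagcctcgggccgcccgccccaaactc
ANKRD1 (chr10:90921088-90921337, minus strand): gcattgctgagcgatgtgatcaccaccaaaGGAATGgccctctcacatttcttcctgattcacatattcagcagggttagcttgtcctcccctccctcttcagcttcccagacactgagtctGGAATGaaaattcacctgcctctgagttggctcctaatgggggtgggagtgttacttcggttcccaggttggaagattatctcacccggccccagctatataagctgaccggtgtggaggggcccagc
YAP1 (chr11:102110197-102110446, plus strand): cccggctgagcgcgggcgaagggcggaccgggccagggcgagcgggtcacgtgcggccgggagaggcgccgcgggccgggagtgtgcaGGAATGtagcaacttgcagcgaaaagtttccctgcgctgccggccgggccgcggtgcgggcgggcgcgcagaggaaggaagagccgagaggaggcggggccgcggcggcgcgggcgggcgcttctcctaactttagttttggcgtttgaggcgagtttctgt
AXL, upstream start site (chr19:41218973-41219222, plus strand): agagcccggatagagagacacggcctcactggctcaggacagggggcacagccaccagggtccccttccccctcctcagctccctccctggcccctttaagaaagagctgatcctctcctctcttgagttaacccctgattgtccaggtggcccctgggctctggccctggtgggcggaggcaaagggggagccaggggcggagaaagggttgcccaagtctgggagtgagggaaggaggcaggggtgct

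The members covered a wide range of levels. Scaled by gene length as well as by depth (RPKM, mean over all 12 libraries), YAP1 was the most abundant at 36.2. It was followed by TEAD1 at 22.1, AXL at 19.5, AMOTL2 at 15.2, WWTR1 at 13.6, AJUBA at 12.8, CYR61 at 10.4 and LATS2 at 7.35. CTGF was at 2.97 RPKM and ANKRD1 at 0.129 RPKM. The libraries of YAP1 (27.9 to 44.8 RPKM) did not overlap with those of TEAD1 (18.2 to 26.8), nor did those of CTGF (1.26 to 5.38) with those of ANKRD1 (0 to 0.421). All other neighbours in this order overlapped between libraries. The filter on low counts removed ANKRD1 and left 9 members among 16657 tested genes.

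**Figure D1:**
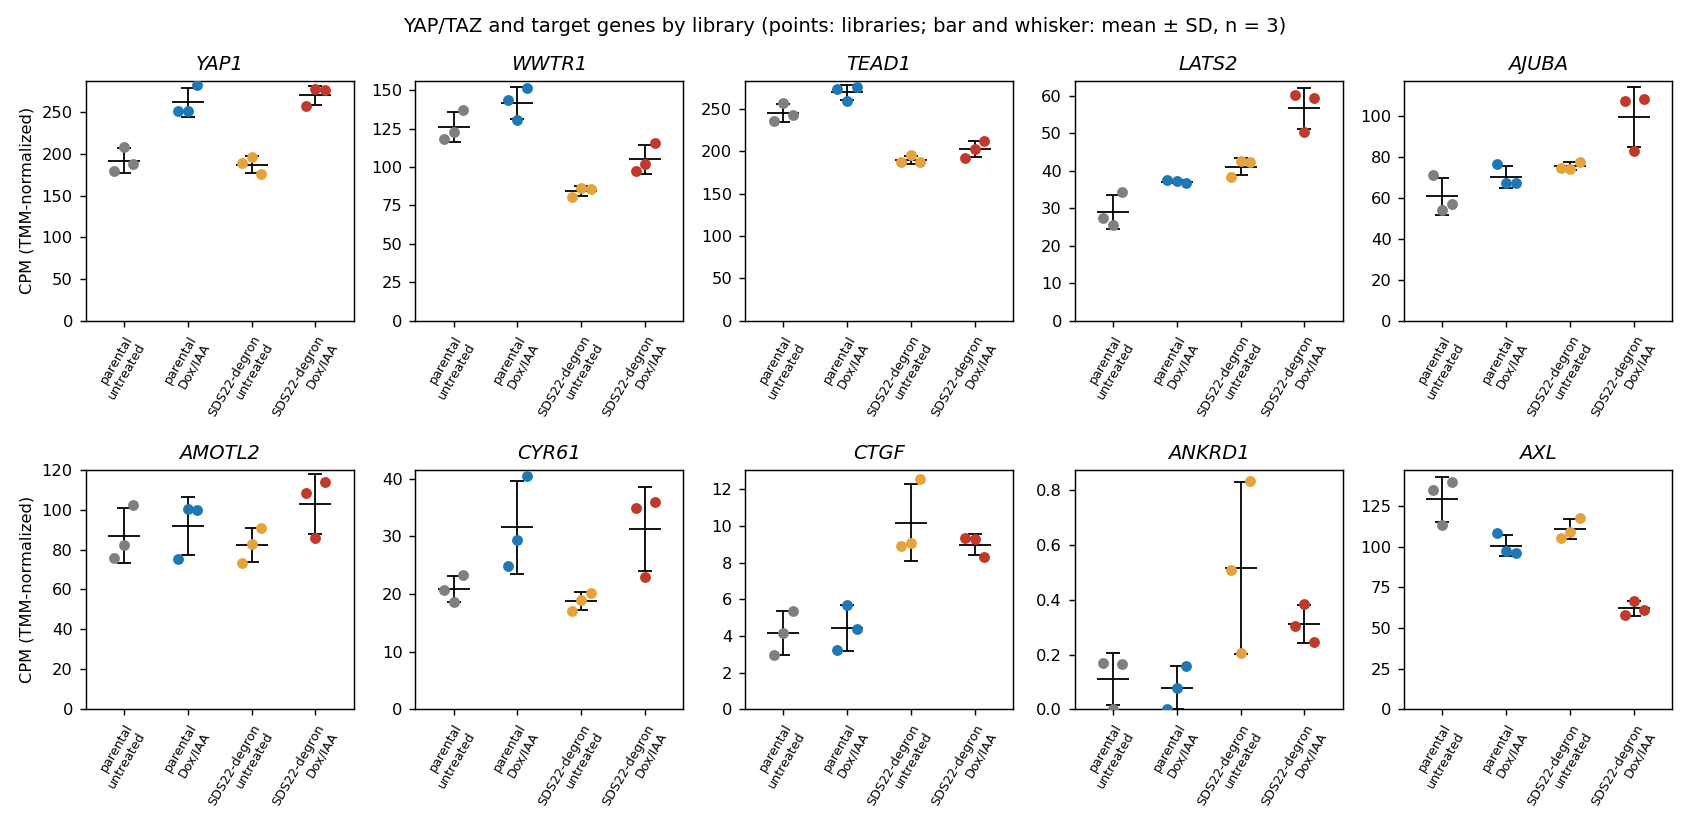
Level of each of the 10 members in CPM (y axis, from 0) in the 4 groups, with a point per library and the mean ± SD (n = 3) as bar and whisker. YAP1 sits between 251 and 282 CPM in all 6 Dox/IAA libraries and between 176 and 208 CPM in the 6 untreated ones, CTGF separates by line, and AXL is lowest in Dox/IAA-treated SDS22-degron cells.

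YAP1 rose with Dox/IAA in both lines, while WWTR1 was lower in the SDS22-degron line with and without Dox/IAA. YAP1 (ENSG00000137693, chromosome 11, 102110461 to 102233423, GRCh38) was at 179, 208 and 188 CPM in untreated parental cells and at 251, 252 and 282 CPM in treated parental cells. The SDS22-degron line had 189, 196 and 176 CPM without and 257, 278 and 276 CPM with Dox/IAA. Treated and untreated libraries did not overlap in either line, whereas those of the lines overlapped. The log2 fold change with Dox/IAA was 0.53 (standard error 0.0718, adjusted p = 6.43e-06) in SDS22-degron and 0.45 (standard error 0.0719, adjusted p = 0.00015) in parental cells. This corresponds to 44.6% and 36.4% more mRNA. These and all following adjusted p values come from the quasi-likelihood test of edgeR and were adjusted by Benjamini and Hochberg's method across every tested gene. Between the lines, YAP1 differed by 0.05 on the log2 scale after Dox/IAA (95% confidence interval -0.10 to 0.20, adjusted p = 0.615). A pseudogene, YAP1P1, held between 118 and 199 counts per library, or 5.28% of the counts of YAP1, and reads of the 2 genes may have been split.

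WWTR1 (ENSG00000018408, chromosome 3, 149517235 to 149736714) was at 118, 123 and 137 CPM in untreated and at 144, 131 and 151 CPM in treated parental cells. The SDS22-degron line had 80.4, 86.5 and 85.8 CPM without and 97.3, 102 and 116 CPM with Dox/IAA. Every library of the SDS22-degron line was thus below every parental library. The log2 fold change between the lines was -0.58 (standard error 0.0795, adjusted p = 2.86e-05) without and -0.44 (standard error 0.0787, adjusted p = 0.000192) with Dox/IAA. Other genes near WWTR1 were lower too. The median of the 84 other tested genes within 10 Mb was -0.27 in the untreated and -0.28 in the treated lines, and that of chromosome 3 was -0.27 and -0.26. Relative to these neighbours, WWTR1 was at -0.31 and -0.15. Within the SDS22-degron line WWTR1 rose with Dox/IAA by 0.32 (standard error 0.0797, adjusted p = 0.00276). The parental cells showed 0.17 (adjusted p = 0.102). This was called with the replicate number as a block (0.17, adjusted p = 0.0356), without untreated replicate 3 (0.24, adjusted p = 0.0446) and without treated replicate 2 (0.23, adjusted p = 0.0372).

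TEAD1 (ENSG00000187079, chromosome 11, 12674591 to 12944483), which brings YAP and TAZ to DNA, was also lower in the SDS22-degron line. It was at 236, 257 and 243 CPM in untreated and at 274, 260 and 276 CPM in treated parental cells. The SDS22-degron libraries were at 188, 196 and 187 CPM without and at 193, 203 and 212 CPM with Dox/IAA, below every parental library. The log2 fold change between the lines was -0.37 (standard error 0.0608, adjusted p = 0.000182) without and -0.41 (standard error 0.0607, adjusted p = 2.35e-05) with Dox/IAA. Its neighbours within 10 Mb had medians of -0.06 and 0.01. The change with Dox/IAA was 0.09 in SDS22-degron cells (adjusted p = 0.221) and 0.14 in parental cells (adjusted p = 0.0932). Of the paralogs, TEAD2 was lower in the untreated SDS22-degron line (-0.41, adjusted p = 0.00463) and was at -0.20 after Dox/IAA (95% confidence interval -0.41 to 0.00, adjusted p = 0.102). With Dox/IAA, TEAD2 rose by 0.25 in SDS22-degron cells (adjusted p = 0.0459) and was at 0.04 in parental cells (adjusted p = 0.784). TEAD4 was higher in the untreated SDS22-degron line (0.41, adjusted p = 0.00444) and fell with Dox/IAA there by 0.52 (adjusted p = 0.000268). In parental cells TEAD4 was at -0.21 (adjusted p = 0.131), and these effects were not called different (-0.31, adjusted p = 0.164). TEAD3 was not called between the lines, and it rose with Dox/IAA in both, by 0.30 (adjusted p = 0.0103) in SDS22-degron and 0.36 (adjusted p = 0.00624) in parental cells.

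The regulators LATS2, AJUBA and AMOTL2, which are in part also targets of YAP and TAZ, were higher after Dox/IAA in SDS22-degron cells, with AMOTL2 close to the threshold. LATS2, the kinase that phosphorylates YAP and TAZ, differed both by line and by treatment. LATS2 (ENSG00000150457, chromosome 13, 20973032 to 21061547) was at 27.5, 25.5 and 34.2 CPM in untreated and at 37.4, 37.3 and 36.7 CPM in treated parental cells. In SDS22-degron cells it was at 38.4, 42.7 and 42.4 CPM without and at 60.2, 50.4 and 59.4 CPM with Dox/IAA. No 2 of the 4 groups overlapped. The log2 fold change with Dox/IAA was 0.46 (standard error 0.0957, adjusted p = 0.000548) in SDS22-degron and 0.35 (standard error 0.101, adjusted p = 0.0123) in parental cells. Without replicate 1 or 2 of untreated parental cells, the change in parental cells was 0.31 or 0.27 and no longer called (adjusted p = 0.0521 and 0.0666). Between the lines LATS2 was 52.5% higher after Dox/IAA (log2 0.61, adjusted p = 5.35e-05) and 41.6% higher without (log2 0.50, adjusted p = 0.00101). Its paralog LATS1 was between 50.8 and 59.5 CPM in all libraries and was not called in any comparison.

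AJUBA (ENSG00000129474, chromosome 14, 22971174 to 22982642), a LIM-domain adaptor that restrains LATS kinases, was at 71.0, 54.3 and 57.0 CPM in untreated and at 76.6, 67.2 and 67.0 CPM in treated parental cells. Its SDS22-degron libraries were at 74.7, 73.8 and 77.6 CPM without and at 108, 82.6 and 108 CPM with Dox/IAA. The treated SDS22-degron libraries were above all others. AJUBA rose with Dox/IAA in SDS22-degron cells by 0.40 (standard error 0.103, adjusted p = 0.00328). Parental cells showed 0.21 (adjusted p = 0.14), which was called only with the replicate number as a block (0.21, adjusted p = 0.0495) or without replicate 1 of untreated parental cells (0.33, adjusted p = 0.0243). It was higher in the SDS22-degron line after Dox/IAA (0.50, adjusted p = 0.000697). The difference between the untreated lines was smaller (0.31, adjusted p = 0.0336), and it was not called without parental replicate 2 or 3 or without any of the SDS22-degron replicates 1 to 3 (adjusted p between 0.067 and 0.117).

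AMOTL2 (ENSG00000114019, chromosome 3, 134355874 to 134375479), an angiomotin family protein that binds YAP, was the least distinct of the regulators. It was at 75.7, 82.5 and 102 CPM in untreated and at 75.2, 101 and 99.7 CPM in treated parental cells. In SDS22-degron cells it was at 73.5, 83.0 and 90.7 CPM without and at 109, 85.9 and 114 CPM with Dox/IAA, and the groups overlapped. Its rise in SDS22-degron cells (0.32, standard error 0.126, adjusted p = 0.0407) was not called without untreated replicate 1 or 2 or treated replicate 1 or 3 (0.22 to 0.32, adjusted p between 0.0822 and 0.214), nor after a correction for GC content (0.27, adjusted p = 0.0701). The lines did not differ by test (0.16 with and -0.08 without Dox/IAA). The 130 other tested genes within 10 Mb had medians of -0.26 and -0.31 in these comparisons, and relative to them AMOTL2 was at 0.43 and 0.23.

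The secreted matricellular proteins CYR61 and CTGF are widely used as YAP/TAZ target genes, and their patterns differed here. CYR61 (ENSG00000142871, chromosome 1, 85580761 to 85583962) rose with Dox/IAA in both lines. It was at 20.7, 18.7 and 23.3 CPM in untreated and at 24.9, 29.3 and 40.4 CPM in treated parental cells. Its SDS22-degron libraries were at 17.1, 18.96 and 20.2 CPM without and at 34.96, 22.9 and 36.0 CPM with Dox/IAA. Treated and untreated libraries did not overlap in either line, but the treated groups were widely spread. CYR61 thus rose by 0.74 on the log2 scale in SDS22-degron cells (standard error 0.169, adjusted p = 0.00129) and by 0.59 in parental cells (standard error 0.169, adjusted p = 0.0116). Without treated parental replicate 3, the parental value was 0.38 and not called (adjusted p = 0.0994). Between the treated lines the difference was -0.01 (95% confidence interval -0.35 to 0.33, adjusted p = 0.966), with -0.19 as the median of the 104 other tested genes within 10 Mb.

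CTGF (ENSG00000118523, chromosome 6, 131948176 to 131951373), in contrast, was higher in the SDS22-degron line irrespective of Dox/IAA. It was at 2.95, 4.14 and 5.35 CPM in untreated and at 3.22, 5.68 and 4.4 CPM in treated parental cells, from as few as 35 counts in a library. In SDS22-degron cells it was at 8.88, 9.07 and 12.6 CPM without and at 9.37, 9.28 and 8.31 CPM with Dox/IAA. The lines did not overlap, whereas treated and untreated libraries did. CTGF was 2.44-fold higher in the untreated (log2 1.29, standard error 0.206, adjusted p = 0.00013) and 2.03-fold higher in the treated SDS22-degron line (log2 1.02, standard error 0.207, adjusted p = 0.00055). Its neighbours within 10 Mb had medians of -0.04 and 0.02. The change with Dox/IAA was -0.17 in SDS22-degron cells (95% confidence interval -0.56 to 0.21, adjusted p = 0.444) and 0.09 in parental cells (-0.40 to 0.58, adjusted p = 0.806).

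**Figure D2:**
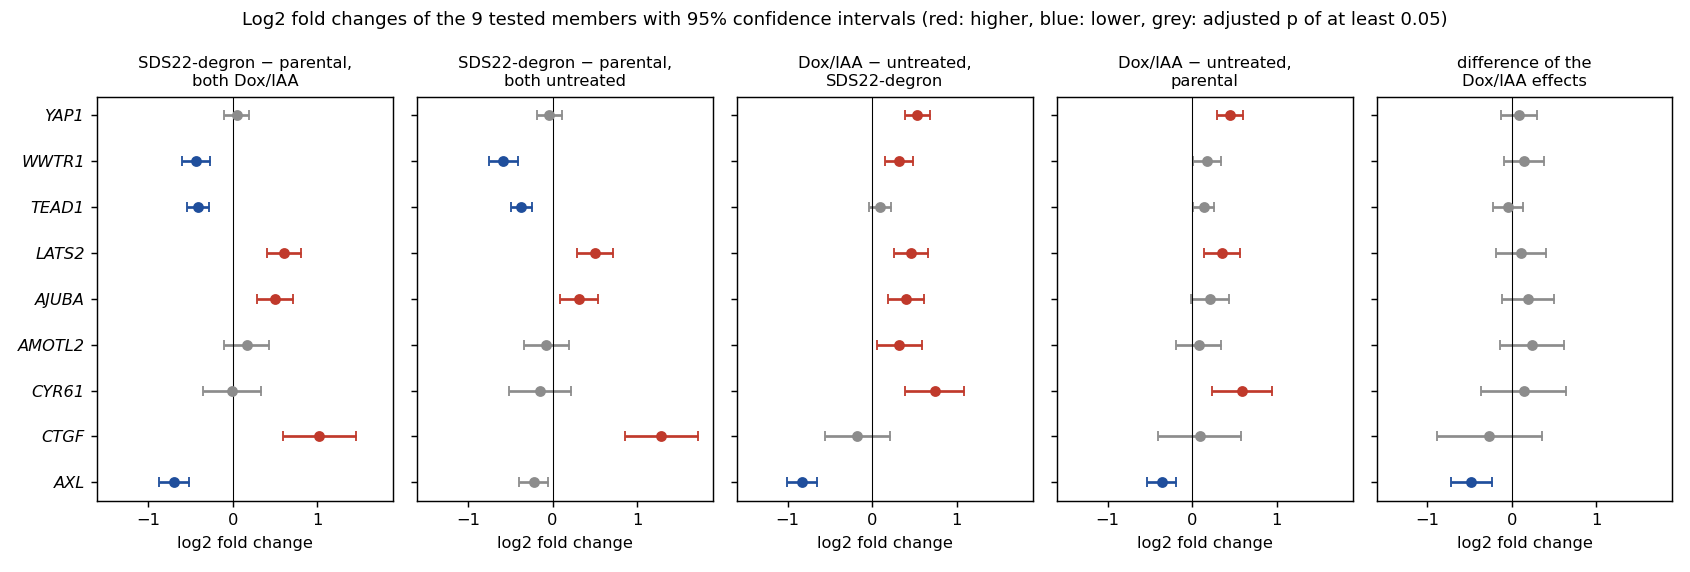
Log2 fold change (x axis) of the 9 tested members with its 95% confidence interval in the 5 comparisons, coloured by call. CTGF is furthest to the right in both comparisons of the lines (1.02 and 1.29), CYR61 has the largest rise with Dox/IAA in both lines (0.74 and 0.59), and only AXL is called in the difference of the Dox/IAA effects (-0.48).

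ANKRD1 (ENSG00000148677, chromosome 10, 90912096 to 90921276), a nuclear ankyrin-repeat protein and YAP/TAZ target, was barely detected as mRNA in these cells. It had 0 to 11 counts per library, with sums of 4 and 3 counts in untreated and treated parental cells and of 21 and 12 counts in untreated and treated SDS22-degron cells. The largest level was 0.834 CPM, in 1 untreated SDS22-degron library. With no filter on low counts, the difference between the untreated lines was 2.12 on the log2 scale (adjusted p = 0.037) and that between the treated lines 1.88 (adjusted p = 0.123). At 2 counts or fewer in every parental library, the size of this difference is poorly determined.

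AXL (ENSG00000167601, chromosome 19, 41219203 to 41261766), a receptor tyrosine kinase, was the only tested member that fell with Dox/IAA. It was at 135, 113 and 140 CPM in untreated and at 108, 97.7 and 96.3 CPM in treated parental cells. In SDS22-degron cells it was at 106, 109 and 118 CPM without and at 58.1, 67.0 and 61.3 CPM with Dox/IAA. Treated libraries were below untreated ones in each line, and the treated SDS22-degron libraries were the lowest of all. AXL fell by 44.0% in SDS22-degron cells (log2 -0.84, standard error 0.0842, adjusted p = 2.19e-07) and by 21.9% in parental cells (log2 -0.36, standard error 0.0821, adjusted p = 0.00282). The effects differed by -0.48 on the log2 scale (standard error 0.117, adjusted p = 0.0101), and this difference was called in each of the 12 fits with a library left out. Between the treated lines AXL was 38.4% lower in SDS22-degron cells (log2 -0.70, adjusted p = 2.75e-06). Between the untreated lines, which overlapped, it was at -0.22 (adjusted p = 0.051), and this was called without untreated parental replicate 2 (-0.29, adjusted p = 0.0118) or untreated SDS22-degron replicate 3 (-0.27, adjusted p = 0.0477).

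Counted over all 9 tested members, 6 rose and 1 fell with Dox/IAA in SDS22-degron cells, where 51.5% of all tested genes were called (26% higher and 25.5% lower). The members' median was 0.32, against 0.00 for all genes. In parental cells 3 rose and 1 fell, with 31.6% of all genes called (15.9% higher and 15.7% lower) and a median of 0.17. With the replicate number as a block, which the parental groups were taken to share, WWTR1 and AJUBA were also called higher, giving 6 members, and 5985 in place of 5264 of all genes were called. Between the treated lines 3 members were higher (CTGF, LATS2 and AJUBA) and 3 were lower (AXL, WWTR1 and TEAD1), with 44.9% of all genes called (21.8% higher and 23.1% lower) and a median of 0.05. Between the untreated lines 3 were higher and 2 were lower, with 28.2% called (13.2% higher and 15% lower) and a median of -0.08. In the interaction only AXL was called, against 14.4% of all genes (6.03% higher and 8.35% lower). For the 8 other members the effects of Dox/IAA in the lines were not called different, but the 95% confidence intervals of the difference reached from -0.89 to 0.36 for CTGF and from -0.36 to 0.64 for CYR61. At the cut-off of the study, which asks for more than 1 on the log2 scale in either direction and for p under 0.05 before adjustment, CTGF alone was called between the treated lines and between the untreated lines, against 6.63% and 4.14% of all genes. It called 0 members with Dox/IAA in SDS22-degron cells, with Dox/IAA in parental cells and in the interaction, against 7.83%, 3.14% and 3.6% of all genes. With each library of the treated lines left out in turn, the log2 fold change of CTGF was between 0.83 and 1.26, and it fell under 1 without treated parental replicate 1 (0.83) or treated SDS22-degron replicate 1 (0.997). The comparisons share groups, so that they are not independent of each other.

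**Figure D3:**
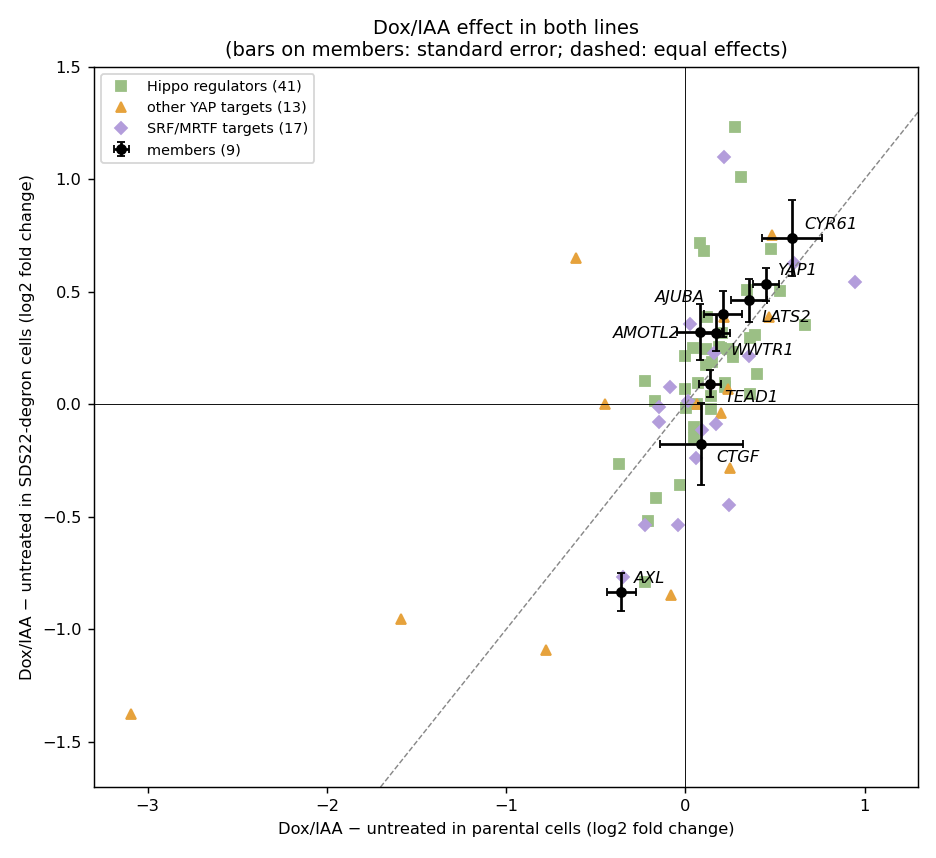
Log2 fold change with Dox/IAA in parental cells (x axis) and in SDS22-degron cells (y axis) for the 9 tested members (black, with standard errors) and for the genes of 3 related lists. Members lie in the upper right except CTGF near 0 and AXL in the lower left, below the dashed line of equal effects (-0.36 and -0.84).

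Signs of proliferation moved with Dox/IAA in SDS22-degron cells as well. All 10 proliferation markers, MKI67, TOP2A and CDK1 among them, fell there, and their summed level was between 991 and 1166 CPM in the treated SDS22-degron libraries, against 1974 to 2816 CPM in all others. In parental cells 3 of the 10 fell with Dox/IAA. Between the treated lines all 10 were lower in SDS22-degron cells, and between the untreated lines 3 were higher and 3 lower. Over all tested genes, 25.5% fell with Dox/IAA in SDS22-degron cells and 15.7% in parental cells. Between the treated lines 23.1% of all genes were lower, and between the untreated lines 13.2% were higher and 15% lower. Of the epithelial markers, the adhesion protein CDH1 rose with Dox/IAA in SDS22-degron (1.00, adjusted p = 4.94e-06) and parental cells (0.36, adjusted p = 0.045), with a called difference of these effects (0.64, adjusted p = 0.029). The keratins KRT8 and KRT18 fell in SDS22-degron (-0.33 and -0.29, adjusted p = 0.0085 and 0.00717) and parental cells (-0.39 and -0.47, adjusted p = 0.00538 and 0.00039). COL1A1, a collagen chain, rose by 0.94 (adjusted p = 2.8e-05) and 0.81 (adjusted p = 0.000749). CDH1, KRT19 and COL1A1 were higher in the treated SDS22-degron than in the treated parental line, by 0.74, 0.52 and 0.47 (adjusted p = 0.000165, 0.000191 and 0.0112). The part of these shifts in the changes of the YAP/TAZ genes was not tested.

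**Figure D4:**
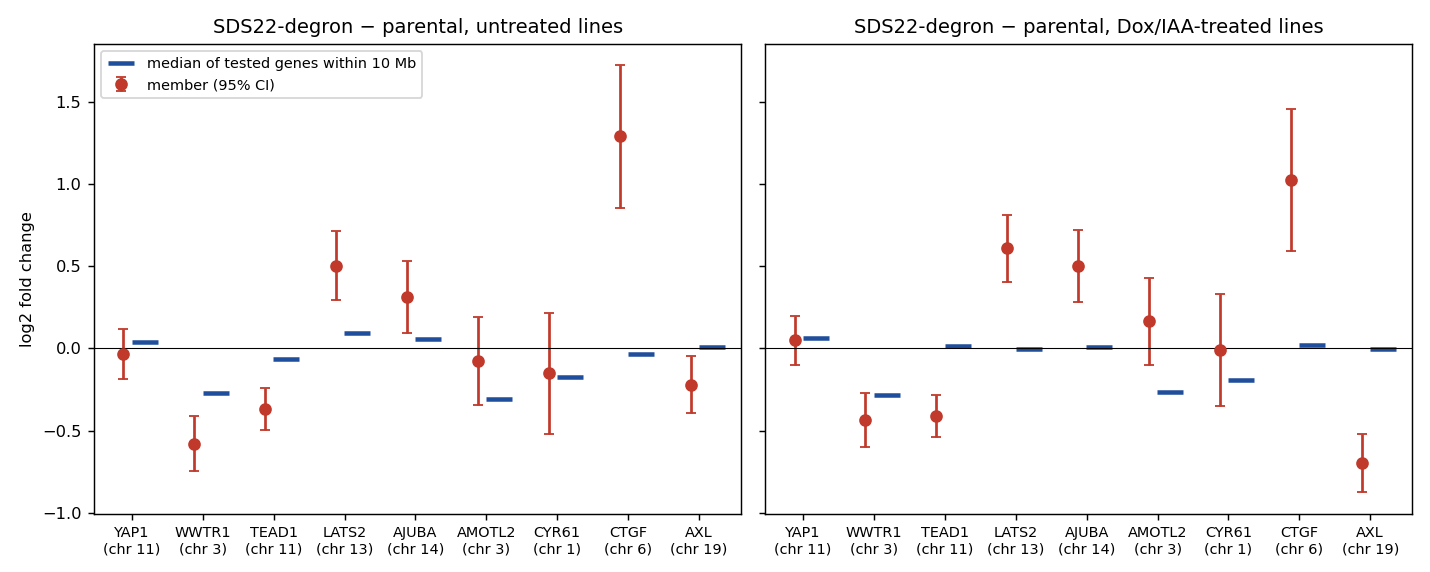
Log2 fold change between the lines (y axis) for each tested member, as a point with its 95% confidence interval, beside the median of the other tested genes within 10 Mb on the same chromosome, as a blue dash, in untreated (left) and treated lines (right). The dashes of WWTR1 and AMOTL2 on chromosome 3 lie between -0.31 and -0.26, and those of CTGF, LATS2 and AXL lie near 0.

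The rest of the pathway was examined with 42 further Hippo regulators, of which 41 were tested. Beside upstream kinases and adaptors, this list held TEAD and VGLL factors and 10 tested phosphatase genes, those of PP1 among them. Activators and antagonists of YAP and TAZ are thus counted together. PTPN14 is also on the list of further YAP targets. With Dox/IAA, 19 rose and 4 fell in SDS22-degron cells and 15 rose and 1 fell in parental cells, with medians of 0.19 and 0.14. Over all tested genes, 26% rose and 25.5% fell in SDS22-degron cells and 15.9% rose and 15.7% fell in parental cells. Between the treated lines 14 regulators were higher and 8 lower, with 21.8% and 23.1% over all genes. Between the untreated lines 9 were higher and 6 lower, with 13.2% and 15%. The lower median of chromosome 3 between the lines (-0.26 treated and -0.27 untreated) was not taken into account in these counts. Of the 10 core kinases and scaffolds, 4 rose and 0 fell in SDS22-degron cells, and 4 rose and 1 fell in parental cells. Between the lines 2 of these 10 were higher and 2 lower after Dox/IAA, and 2 were higher and 1 lower without. TAOK3, a kinase upstream of the MST kinases, rose with Dox/IAA by 0.69 in SDS22-degron cells (adjusted p = 1.14e-06) and by 0.48 in parental cells (adjusted p = 0.000367). VGLL4, which competes with YAP for TEAD factors, rose from 28.4, 30.4 and 25.5 CPM to 55.2, 53.7 and 61.2 CPM in SDS22-degron cells (1.01, adjusted p = 6.77e-08), and by 0.31 (adjusted p = 0.0154) in parental cells. Its effects differed between the lines by 0.70 (adjusted p = 0.00137). NF2, an upstream activator of LATS kinases, was higher in the untreated SDS22-degron line (0.53, adjusted p = 2.8e-05) and fell there with Dox/IAA by 0.36 (adjusted p = 0.00042). WWC2, a KIBRA family scaffold, was higher in the SDS22-degron line both with (0.72, adjusted p = 2.3e-06) and without Dox/IAA (0.39, adjusted p = 0.00191). Its effects of Dox/IAA were not called different between the lines (adjusted p = 0.0782). The angiomotin AMOTL1, unlike AMOTL2, was lower in the treated SDS22-degron line (-0.47, adjusted p = 2.91e-05). Between the untreated lines it was at -0.15 (adjusted p = 0.12).

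PP1 itself has 3 catalytic subunit genes. Of these, PPP1CC fell with Dox/IAA in SDS22-degron cells, from 345, 356 and 302 CPM to 257, 253 and 241 CPM (-0.42, adjusted p = 0.000239), and was at -0.16 in parental cells (adjusted p = 0.126). These effects were not called different (-0.25, 95% confidence interval -0.49 to -0.02, adjusted p = 0.14). PPP1CC was also lower in the treated SDS22-degron than in the treated parental line (-0.21, adjusted p = 0.041). PPP1CA rose with Dox/IAA in parental cells by 0.22 (adjusted p = 0.00837) and was at 0.08 in SDS22-degron cells (adjusted p = 0.306), and these effects were not called different (adjusted p = 0.264). PPP1CB was not called in any comparison.

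Of 16 further YAP targets 13 were tested. With Dox/IAA 3 rose and 5 fell in SDS22-degron cells, with a median of 0.00, and 5 rose and 4 fell in parental cells, with a median of 0.06, where 51.5% and 31.6% of all genes were called. Between the lines 8 were higher and 2 lower after Dox/IAA (median 0.46), against 21.8% and 23.1% of all genes. Without Dox/IAA 6 were higher and 2 lower (median 0.22), against 13.2% and 15% of all genes. F3, tissue factor, was at 35.3, 39.04 and 36.0 CPM in untreated parental and at 90.6, 97.3 and 105 CPM in untreated SDS22-degron cells (1.41, adjusted p = 2.99e-10), and fell there with Dox/IAA by 0.85 (adjusted p = 4.1e-08). ARHGEF17 was higher in the treated SDS22-degron line by 0.92 (adjusted p = 8.93e-07) and rose with Dox/IAA in both lines. Without Dox/IAA it was already at 47.8 to 48.5 CPM in SDS22-degron, against 24.9 to 34.5 CPM in parental cells. NT5E, the ecto-nucleotidase CD73, was lower in the treated SDS22-degron line (-1.15, adjusted p = 1.81e-08). Untreated SDS22-degron cells were already lower in NT5E, at 58.7 to 66.6 CPM against 89.3 to 103 CPM in untreated parental cells. FJX1 fell with Dox/IAA in SDS22-degron (-1.09, adjusted p = 1.5e-06) and parental cells (-0.78, adjusted p = 0.000222), as AXL did.

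YAP/TAZ targets overlap in part with those of SRF and its MRTF coactivators, which respond to actin. Of 19 such genes 17 were tested, and with Dox/IAA 5 rose and 5 fell in SDS22-degron cells, with a median of -0.01, where 51.5% of all genes were called. ACTG1, cytoplasmic γ-actin, went from 5102, 5191 and 5427 CPM to 3358, 2946 and 2923 CPM (-0.77, adjusted p = 1.79e-06), and ACTB, β-actin, fell by 0.53 (adjusted p = 6.22e-06). ACTA2, smooth muscle α-actin, rose from 9.25, 8.24 and 9.10 CPM to 16.0, 23.8 and 17.03 CPM (1.10, adjusted p = 3.72e-06). TPM2, a tropomyosin, fell by 0.45 (adjusted p = 1.49e-05). In parental cells 4 of the 17 rose and 2 fell, with 31.6% of all genes called. Between the treated lines 2 were higher and 6 lower, with 44.9% called, and between the untreated lines 3 were higher and 6 lower, with 28.2% called.

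**Figure D5:**
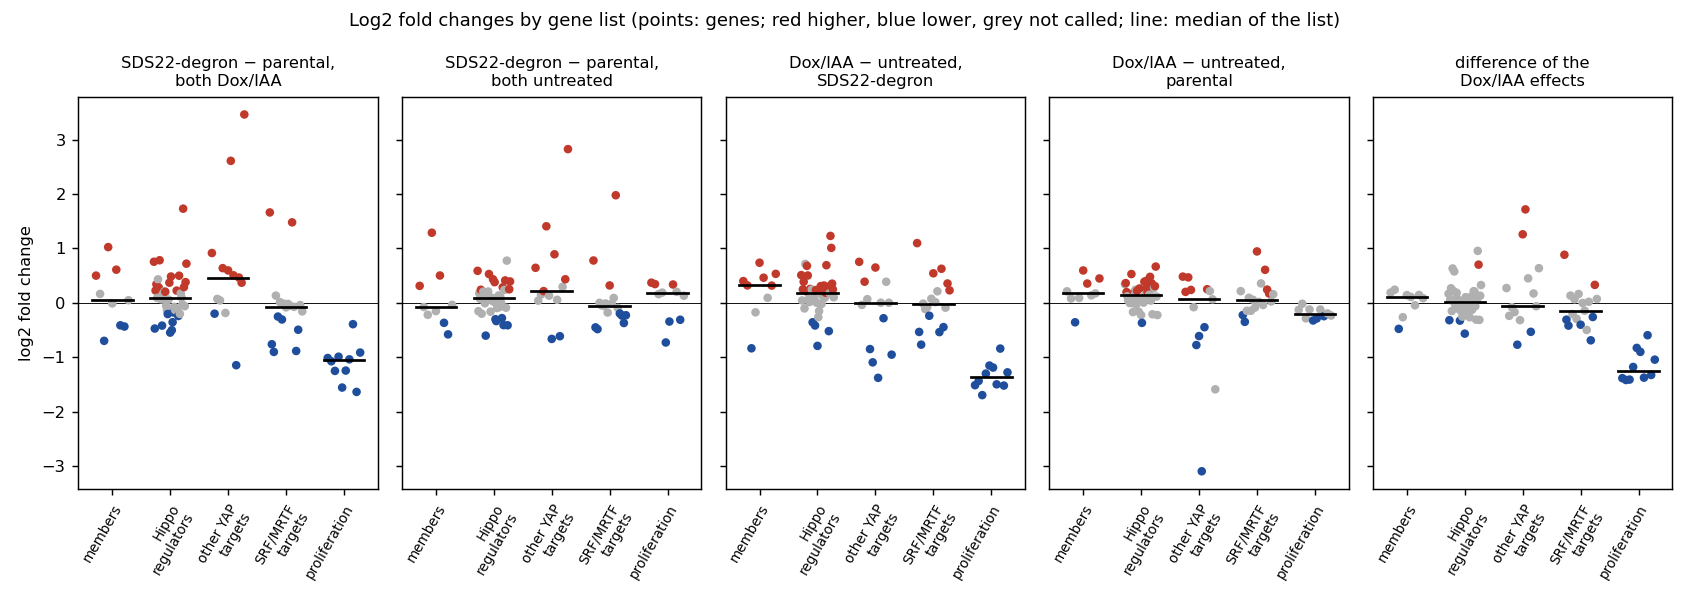
Log2 fold changes (y axis) of the members and of the genes of 4 lists in the 5 comparisons, with a point per tested gene coloured by call and a black line at the median of the list. The members' median is highest with Dox/IAA in SDS22-degron cells (0.32), where the median of the proliferation markers is -1.37.

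The genes with the group pattern closest to CYR61 were LPIN2, DHRS1 and TPM1, with root-mean-square differences of 0.00969, 0.0163 and 0.0332 on the log2 scale over the 4 centred group means, among 9683 protein-coding genes of at least 10 CPM. TPM1 is also on the list of SRF/MRTF targets. Those closest to CTGF were SH3BP4, MSRB3 and RIMKLA, at 0.0813, 0.121 and 0.122 among 9684 genes. With 4 group means such a likeness is a description only.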

How the data were processed

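RNA-sequencing counts from 12 libraries (4 groups of 3) were analysed. Libraries were poly-A selected, stranded and sequenced as single reads. Per the submitters' processing notes, GRCh38 was used as genome build, with cutadapt 1.15, Bowtie2 2.3.3.1, STAR 2.5.2b, SAMtools 1.5 and featureCounts 1.5.3. The annotation release and the strand setting of the counting are not given in the sources used here. The values that the authors deposited are unnormalized read counts per gene, beside each gene's position, length and GC percent. All count columns were mapped to samples by their names, and 0 columns were left unmapped.

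Genes were filtered with filterByExpr (minimum count 10), normalized by TMM and fitted in 1 model of 4 group means, using edgeR 4.0.16 (R 4.3.3). Its quasi-likelihood test was used, with Benjamini-Hochberg adjusted p over 16657 genes and a threshold of 0.05. CPM and RPKM values are TMM-normalized. The TMM factors were between 0.971 and 1.03, and log2 fold changes had a median standard error of 0.110 (0.156 in the interaction). The scripts were tested on simulated data. Replicates of a group differed by more than counting noise (chi-square per degree of freedom from 2.16 to 9.73).

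Same-numbered libraries were checked for pairing by correlating their deviations from the group means across genes. Every such r was over 0.1 between the parental groups and between the treated lines, the 2 comparisons that were therefore taken as paired from the data. The main model had no term for this pairing, so that all values are unpaired unless the replicate block is named. The labels do not state a shared batch or day. The lowest of all 18 values was -0.06 and the highest 0.25.

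The members and the lists were chosen with earlier results of these data known. All members were named. From each of the 3 pathway lists, the 2 genes with the smallest adjusted p with Dox/IAA in SDS22-degron cells and the next 2 between the treated lines were named, together with TEAD, LATS and PP1 paralogs and NF2. Motifs were searched in RefSeq promoter sequences. Alternatives were the likelihood ratio test of edgeR, DESeq2 1.42.0, library size or upper-quartile normalization, no filter or a filter at 1 CPM, only the groups compared, the replicate block, a GC correction (loess span 0.3), the study's cut-off and each library left out.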

Additional observations from a re-analysis of the deposited data

Results flagged for a closer look

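The effect of Dox/IAA differed between SDS22-degron and parental cells, with an adjusted p under 0.05 in the interaction term of edgeR, for 16 of 79 tested genes among the members and the 3 pathway lists. For comparison, 14.4% of all tested genes met this threshold. The values are the log2 effect in SDS22-degron cells minus that in parental cells, and genes that are not named in the report were named because they met this threshold. AXL was the only member (-0.48, standard error 0.117, adjusted p = 0.0101), with a stronger fall in SDS22-degron cells. Among Hippo regulators, VGLL4 (0.70, adjusted p = 0.00137) rose more in SDS22-degron cells, RASSF1 (-0.57, adjusted p = 0.00729) and NF2 (-0.33, adjusted p = 0.0387) were called lower only there, and AMOTL1 (-0.32, adjusted p = 0.04) was called higher only in parental cells.

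Among the further YAP targets, F3 differed by -0.77 (adjusted p = 0.000156) and NT5E by -0.53 (adjusted p = 0.00758). GADD45A, a stress-inducible gene, differed by 1.26 (adjusted p = 0.000325), since it rose by 0.65 in SDS22-degron cells (adjusted p = 0.000703) and fell by 0.61 in parental cells (adjusted p = 0.00264). IGFBP3, a secreted binding protein of insulin-like growth factors, differed by 1.72 (adjusted p = 0.0405), since it fell less in SDS22-degron cells. Its change with Dox/IAA was -1.38 there (adjusted p = 0.000202) and -3.10 in parental cells (adjusted p = 4.06e-05). IGFBP3 was between 0.15 and 4.88 CPM in all libraries, with a sum of 10 counts in treated parental cells. Among the SRF/MRTF targets, ACTA2 (0.88, adjusted p = 0.0143) and VCL (0.33, adjusted p = 0.0277) had positive differences. TPM2 (-0.69, adjusted p = 8.96e-05), ACTG1 (-0.42, adjusted p = 0.0378), MYL9 (-0.40, adjusted p = 0.0226), ACTB (-0.31, adjusted p = 0.0478) and TPM4 (-0.26, adjusted p = 0.037) had negative ones. Of these, ACTG1 and ACTB fell with Dox/IAA in both lines, whereas MYL9 rose in SDS22-degron (0.54) and parental cells (0.94). TPM2 fell in SDS22-degron (-0.45) and rose in parental cells (0.24), and TPM4 was called higher only in parental cells (0.17). All 10 proliferation markers had negative differences too, and their part in these values was not tested.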

How the results depend on the processing

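Of 45 log2 fold changes of members, 37 kept their call under every alternative other than the study's cut-off, which only CTGF passes between the lines, and 0 called values reversed. The 8 others were those of WWTR1, TEAD1, LATS2, AJUBA and CYR61 with Dox/IAA in parental cells, AMOTL2 with Dox/IAA in SDS22-degron cells, and AJUBA and AXL between the untreated lines. TEAD1 in parental cells was called under normalization by library size only (0.20, adjusted p = 0.0154) or the upper quartile (0.16, adjusted p = 0.0456) and under the GC correction with the replicate block (0.15, adjusted p = 0.0469), and WWTR1 under library size only (0.23, adjusted p = 0.0238) and the GC correction with the block (0.19, adjusted p = 0.0256). AJUBA between the untreated lines was not called under the GC correction (0.26, adjusted p = 0.0658). AXL between the untreated lines was called under the likelihood ratio test (-0.22, adjusted p = 0.0467), without a filter (-0.23, adjusted p = 0.0259), and with the GC correction alone (-0.26, adjusted p = 0.00913) or with the block (-0.26, adjusted p = 0.00761).

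With the replicate number as a block, the count of all genes called between the treated lines went from 7486 to 8025. In the interaction, Hippo regulators called went from 4 to 7 and all genes called from 2396 to 3128. AXL between the untreated lines was called with the block (-0.22, adjusted p = 0.0392). Of the 12 libraries, 4 correlated best with their own number in every other group. Beside these and the calls given for WWTR1 and AJUBA in parental cells, the block changed no other call of a member.

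The study's cut-off, applied to p values of the quasi-likelihood test, gave smaller counts, as it asks for a larger change. In the order treated lines, untreated lines, Dox/IAA in SDS22-degron cells, Dox/IAA in parental cells and interaction, it called 1105, 689, 1305, 523 and 600 of all genes, 1, 1, 0, 0 and 0 members, 1, 0, 2, 0 and 0 Hippo regulators, 3, 2, 2, 2 and 2 further YAP targets, and 2, 1, 1, 0 and 0 SRF/MRTF targets. With each library left out, Hippo regulators called were between 2 and 7 in the interaction and between 10 and 18 in parental cells, and SRF/MRTF targets in the interaction between 3 and 7. All genes called were then between 1681 and 2957 in the interaction and between 3934 and 5217 in parental cells. The cause of these shifts was not tested. Relative to the genes within 10 Mb, the differences between the lines moved by more than the replicate spread for WWTR1, AMOTL2 and, untreated only, TEAD1 (-0.30). At 35 to 166 counts per library for CTGF and 0 to 11 for ANKRD1, depth limits what can be said of these target genes.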

Other observations

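The genes with the largest differences between the lines on the lists of Hippo regulators and further YAP targets were of low abundance, and were chosen after their values were seen. TGFB2, a secreted growth factor, was at 0.0749 to 0.158 CPM in treated parental and at 1.47 to 1.60 CPM in treated SDS22-degron cells (log2 3.46). It was at 0.312 to 0.590 CPM in untreated parental and at 2.18 to 3.79 CPM in untreated SDS22-degron cells (log2 2.82). VGLL3, a TEAD cofactor, was at 0.471 to 0.710 CPM in treated parental and at 1.37 to 2.32 CPM in treated SDS22-degron cells (log2 1.73), while the untreated lines differed by 0.78. Untreated and treated parental cells held sums of only 15 and 5 counts of TGFB2 and 18 and 23 counts of VGLL3. Both genes passed the filter on low counts only through the SDS22-degron libraries. Their p values are therefore not given, and their direction adds no support to that of CTGF. They remain in the counts of their lists. STK3, the MST2 kinase upstream of LATS, was likewise chosen after its values were seen and rose with Dox/IAA in SDS22-degron (0.31, adjusted p = 0.00133) and parental cells (0.39, adjusted p = 0.000451).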
